A study of Mus musculus with 160 samples.

Results

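The 8 genes described here encode the Meis, Pbx and Pknox homeodomain proteins Meis1, Meis2, Meis3, Pbx2, Pbx3, Pbx4, Pknox1 and Pknox2. They were taken by gene symbol from a count table of 46078 genes, and each symbol matched 1 row. Other members of these families were not analysed here. RNA was sequenced from 160 pools of 20 cells of the aorta-gonad-mesonephros (AGM) region, the site in the mouse embryo where hematopoietic stem cells first form, with 20 pools in each of 8 sorted populations. All embryos were heterozygous for a GFP knockin at Gata3 (genotype Gata3-GFP +/-), so GFP reports Gata3 expression and no pool came from an embryo with 2 intact Gata3 alleles. Endothelial cells (ECs; Cdh5+ CD41- CD45-) and hematopoietic cells (HCs; sorted by CD41 and CD45) came from E10.5 embryos, and mesenchymal cells (MCs; Pdgfrb+) and cells of the sympathetic nervous system (SNS; Ngfr+) from E11.5 embryos, each split into GFP+ and GFP- pools. Stage and cell type cannot be told apart between the E10.5 and the E11.5 populations. Embryos were pooled before sorting and the column labels do not say which collection a pool came from, so p-values measure the spread between pools of 20 cells.

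Meis, Pbx and Pknox proteins belong to the TALE class of homeodomain proteins, which carry a loop extension in the DNA-binding domain. Pbx proteins bind DNA together with Hox proteins and sharpen their choice of sites. Meis and Pknox (Prep) proteins compete for the same contact on Pbx, hold it in the nucleus, and form complexes with Pbx and Hox on DNA. Meis1 is required for definitive hematopoiesis and is a partner of Hoxa9 in leukemia, Meis2 acts in limb, cranial and neural crest development, and Pknox1 is expressed in most tissues. The comparisons ask which of these cofactors differ with Gata3 expression within each cell type, and how their levels and mix differ between cell types.

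All but 7 pools passed the limits of the study on reads and on mitochondrial and spike-in shares, with 1400824 to 16004756 counts on genes per pool. Levels are in CPM, counts scaled to a common library size after TMM normalization, and in pools of cells fewer expressing cells and less RNA per cell cannot be told apart. Gata3 followed the sort at E10.5, with a median of 78 CPM in GFP+ against 10.47 CPM in GFP- ECs, and of 45.1 CPM in GFP+ against 7.03 CPM in GFP- HCs. At E11.5, 12 passing pools went against their label by their own sorting genes, 3 in each population. In each population they were the last 3 columns. The 6 libraries labelled MC had 28.9 to 324 CPM of Ngfr and 0.954 to 12.4 CPM of Pdgfrb, while the 6 libraries labelled SNS had 116.6 to 249.8 CPM of Pdgfrb and 0.905 to 7.74 CPM of Ngfr. Gata3 was at 122.7 to 395.2 CPM in those labelled GFP- MC and at 16.3 to 82.3 CPM in those labelled GFP+ MC, and at 44.4 to 50.2 and 9.97 to 24.3 CPM in those labelled GFP- and GFP+ SNS. Summed mesenchymal markers, a list with Pdgfrb, were at 279.3 to 732.2 CPM in the 6 labelled MC and at 2853 to 5298 CPM in the 6 labelled SNS. Neural crest and glial precursor markers, a list with Ngfr, were at 277.6 to 1540 and 9.18 to 24.4 CPM in the same order. The 12 pools were found by Pdgfrb and Ngfr alone, after the data were seen. Tests between E11.5 populations are given with them and without them, levels and shares without them. Cdh5, which defines the EC gate, was at a median of 430.4 CPM or more in both EC populations and of 0 in the MC and SNS populations. Ptprc, which encodes CD45, was at a median of 208.3 CPM in GFP+ HCs (range 4.66 to 356.5) and of 429.4 CPM in GFP- HCs, and Itga2b, which encodes CD41, at 232.6 and 8.66 CPM.

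**Figure D1:**
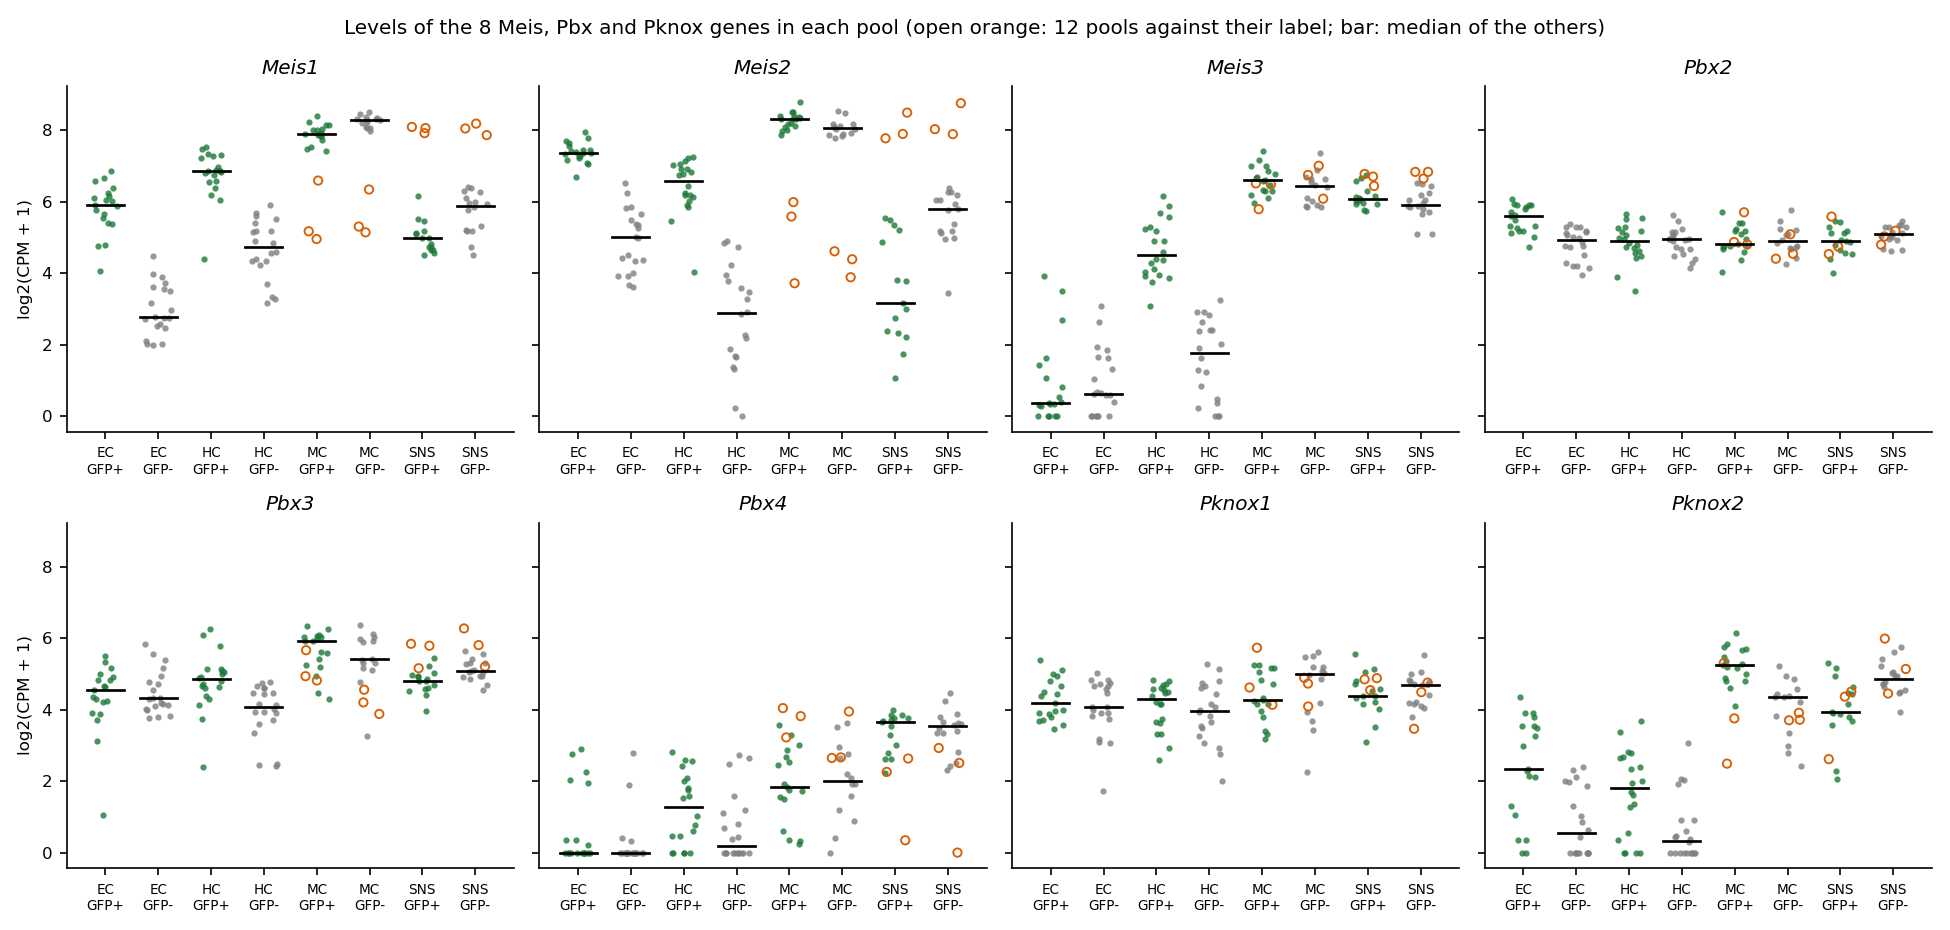
Level of each gene, as log2(CPM + 1) on the y axis, in every passing pool of the 8 populations on the x axis; filled points are pools, green for GFP+ and grey for GFP-, open orange points are the 12 pools that went against their label, and bars are medians of the others. Most GFP+ pools lie above the GFP- pools for Meis1 and Meis2 in ECs and HCs and for Meis3 in HCs, while the levels of Pknox1 overlap across all populations and those of Pbx2 do so but for a higher bar in GFP+ ECs.

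In ECs, Meis1, Meis2, Pbx2 and Pknox2 were higher in GFP+ than in GFP- pools and no member was lower. Each family had a member that rose. These are 4 of the 8 members. Of all 15073 genes tested, 19.5% were called higher and 16.5% lower (called: adjusted p under 0.01, edgeR quasi-likelihood, Benjamini-Hochberg over all genes). The median log2 fold change of the members was 1.04, and that of all genes tested was 0.10.

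Meis1 (ENSMUSG00000020160, chromosome 11 from 18879817 to 19018985, minus strand, GRCm38) ranged from 15.6 to 115.6 CPM in GFP+ ECs with a median of 59.2, and from 2.95 to 21.3 CPM in GFP- ECs with a median of 5.82. In 18 of the 19 GFP+ pools the level was above every GFP- pool. The rise was 7.32-fold (log2 fold change 2.87, SE 0.25, edgeR adjusted p = 5.18e-13). Exons of Meis1 share 9.77% of their bases with Gm37818 on the same strand and 8.51% with the antisense gene Gm16140, and reads there may have been lost or assigned to either gene. The promoter sequence of Meis1 is shown because this gene was called in both E10.5 cell types and its window starts ahead of its exons. These are the 234 bases ahead of its first annotated exon (RefSeq start site, GRCm38.p6, chr11:19018986-19019219, minus strand), with a CCAAT box in capitals.
Meis1 promoter: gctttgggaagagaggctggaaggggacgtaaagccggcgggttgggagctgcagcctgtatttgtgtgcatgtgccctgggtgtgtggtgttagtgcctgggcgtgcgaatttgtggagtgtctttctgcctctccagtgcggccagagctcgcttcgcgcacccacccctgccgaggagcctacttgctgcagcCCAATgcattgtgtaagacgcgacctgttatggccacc
RefSeq promoters were at hand for 5 of the 8 members, Meis1, Meis2, Meis3, Pbx2 and Pbx4. In the 250 bases before the start, searched on both strands, none of the 5 held GATAA, the core read by GATA factors (in 22.6% of 32851 promoters), TGACAG, the core read by Meis and Pknox (15.9%), or TGATNNAT, a Pbx-Hox site (7.68%). CCAAT was found in the promoters of Meis1, Meis2 and Pbx4, and in 33.8% of all promoters. TATAAA was found in that of Meis2 and in 12.4% of all. These are matches of letters in a short window. The windows of Meis2, Meis3 and Pbx2 lay inside the annotated genes, so the bases ahead of the annotated gene starts were not searched. Of the 250 bases, 170 were exonic for Meis2 and 160 for Meis3.

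Meis2 (ENSMUSG00000027210, chromosome 2 from 115863064 to 116065839) was the most abundant member per kilobase of exon in GFP+ ECs. It ranged from 102.7 to 246.3 CPM with a median of 164.6 there, and from 11.2 to 90.3 CPM with a median of 31.03 in GFP- ECs. The 2 ranges did not overlap, and the rise was 4.75-fold (log2 fold change 2.25, SE 0.21, edgeR adjusted p = 3.96e-12). Meis3 (ENSMUSG00000041420, chromosome 7 from 16175090 to 16186504) was close to the limit of detection in both, with medians of 0.289 and 0.539 CPM and at least 10 counts in 4 of 19 and 2 of 20 pools. Its log2 fold change of 0.46 (SE 0.73, edgeR adjusted p = 0.632) left an interval from -0.98 to 1.89.

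Pbx2 (ENSMUSG00000034673, chromosome 17 from 34591266 to 34597400) differed by less. Its levels were 25.4 to 66.6 CPM with a median of 47.4 in the GFP+ and 14.5 to 40.3 CPM with a median of 29.7 in the GFP- pools. The pools overlapped, with 11 of 19 GFP+ pools above every GFP- pool, and the change was 1.61-fold (log2 fold change 0.69, SE 0.14, edgeR adjusted p = 6.09e-05). Scaled to the ERCC spike-in RNAs in place of TMM, the median gene moved from 0.10 to -0.60 on the log2 scale between these populations and Pbx2 stood at 0.05 (adjusted p = 0.837, with a range of 2.63e-06 to 0.837 over 11 alternatives). Pbx2 stood above the median gene under both scalings, and its rise in CPM did not pass per spike-in. Pbx2 shares 6.24% of its exon bases with Gpsm3 on the same strand. Pbx3 (ENSMUSG00000038718, chromosome 2 from 34171457 to 34373142) had medians of 22.6 and 18.9 CPM (log2 fold change -0.11, SE 0.24, edgeR adjusted p = 0.72), and per spike-in it was lower (-0.86, adjusted p = 0.00906). Pbx4 (ENSMUSG00000031860, chromosome 8 from 69832491 to 69872292), best known from the germ line, was listed at 0 in 11 of 19 and in 16 of 20 pools and its difference could not be resolved at this depth.

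Pknox2 (ENSMUSG00000035934, chromosome 9 from 36890982 to 37147407) was low but rose, from 0 to 19.5 CPM with a median of 4.02 in GFP+ ECs against 0 to 4.27 CPM with a median of 0.454 in GFP- ECs. At least 10 counts were found in 13 of 19 and in 4 of 20 pools, and 9 GFP+ pools lay above every GFP- pool. The log2 fold change was 2.34 (SE 0.64, edgeR adjusted p = 0.00254), and 1.71 per spike-in (adjusted p = 0.0234, with a range of 1.92e-05 to 0.0234 over 10 alternatives). Pknox1 (ENSMUSG00000006705, chromosome 17 from 31564734 to 31607693) was present throughout, with medians of 17.2 and 15.8 CPM and a log2 fold change of 0.13 (SE 0.23, edgeR adjusted p = 0.653). Summed endothelial markers had a median of 6896 CPM (range 5831 to 7856) in GFP+ against 4448 CPM (3675 to 5473) in GFP- ECs. Of these 8 genes, 7 were called higher and 1 lower. The GFP+ EC pools also held more mesenchymal markers (summed median 104.7 CPM, range 26.4 to 1621, against 17.4 CPM, range 5.23 to 72.9, in GFP- pools; 8 of 8 genes higher) and more blood cell markers (283.4 against 105.5 CPM; 4 of 8 higher), as well as sympathetic and neuronal markers (384.3 against 47.6 CPM; 2 of 3 tested higher). Without the pool highest in mesenchymal markers, an alternative added after the data were seen, the same 4 members were higher, with 2.90 for Meis1, 2.23 for Meis2, 0.67 for Pbx2 and 2.24 for Pknox2 on the log2 scale. The sympathetic genes Phox2a and Th had a median of 0 in these GFP+ pools. Among the blood cell markers, of which 0 were called lower, the sorting genes Ptprc and Itga2b were low in both EC populations. Their medians were 2.95 and 2.57 CPM in GFP+ against 4.23 and 4.40 CPM in GFP- ECs. The part of such cells in the EC values was not tested beyond this.

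In HCs, all 3 Meis genes and Pbx3 were higher in GFP+ than in GFP- pools. Again 4 of the 8 members were called higher and 0 lower, while 17.1% of 16200 genes were called higher and 9.53% lower. The median log2 fold change was 1.32 over the members and 0.05 over all genes.

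Meis1 ranged from 20.04 to 183.3 CPM with a median of 114.8 in GFP+ HCs and from 7.96 to 58.6 CPM with a median of 25.5 in GFP- HCs, and rose 4.13-fold (log2 fold change 2.05, SE 0.22, edgeR adjusted p = 3.04e-09). Meis2 ranged from 15.3 to 151.7 CPM with a median of 96.0 against 0 to 28.6 CPM with a median of 6.34, a 10.2-fold rise (log2 fold change 3.35, SE 0.39, edgeR adjusted p = 7.94e-09). Meis3 had 7.38 to 70.2 CPM with a median of 21.6 against 0 to 8.60 CPM with a median of 2.41, a 9.58-fold rise (log2 fold change 3.26, SE 0.41, edgeR adjusted p = 4.81e-08). For each of the 3 genes, 19 of the 20 GFP+ pools lay above every GFP- pool. The same pool was the exception each time and held the lowest level of all 3 among GFP+ HCs.

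Among Pbx genes, Pbx3 rose 1.91-fold in HCs (log2 fold change 0.93, SE 0.24, edgeR adjusted p = 0.00198). It had a median of 27.8 CPM (range 4.29 to 76.2) in GFP+ against 15.9 CPM (range 4.34 to 26.3) in GFP- pools. Its pools overlapped, with 11 of 20 GFP+ pools above every GFP- pool. Pbx2 had medians of 29.01 and 29.8 CPM, and the interval of its log2 fold change ran from -0.26 to 0.32. Pknox1 had medians of 18.7 and 14.5 CPM (interval -0.38 to 0.56). Pknox2 had medians of 2.54 and 0.261 CPM with a log2 fold change of 1.70 (SE 0.69, edgeR adjusted p = 0.0468). The 8-population fit called it (1.72, adjusted p = 0.0019), and without the 5 pools highest in markers of other cells, described next, it was 1.06 (adjusted p = 0.294). Pbx4 had medians of 1.45 and 0.150 CPM (0.75, SE 0.72, adjusted p = 0.436).

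Markers of other cells differed along with the Meis genes in HCs. In GFP+ pools the summed mesenchymal markers had a median of 389.1 CPM (range 24.8 to 1068) against 38.9 CPM (4.08 to 198.1) in GFP- pools, with 8 of 8 genes higher. The sympathetic and neuronal markers had 183.4 CPM (12.9 to 2524) against 14.4 CPM (2.86 to 31.5), with 10 of 10 genes higher. Phox2a among them had a median of 0 in GFP+ HCs. Urogenital epithelial markers had 35.2 against 2.49 CPM, with 4 of 4 tested higher and Pax2, Pax8, Lhx1 and Cdh16 at a median of 0 in GFP+ pools, and neural crest markers 19.6 against 2.14 CPM, with 3 of 4 tested higher. Endothelial markers had 198.3 against 65.5 CPM, with 7 of 8 higher, and blood cell markers 3703 against 5588 CPM, with 6 of 8 lower and 1 higher. Of the 2 sorting genes in the blood list, Itga2b had medians of 232.6 against 8.66 CPM and Ptprc of 208.3 against 429.4 CPM. Across the 20 GFP+ HC pools, on the log2(CPM + 1) scale the summed level of the 32 mesenchymal, sympathetic, neural crest and urogenital markers went with Meis2 (Pearson r = 0.758, adjusted p = 0.00088; Spearman rho = 0.848, adjusted p = 0.00032; permutation tests over 16 relations) and with Meis3 (r = 0.712, adjusted p = 0.00155; rho = 0.699, adjusted p = 0.00364). Without the 2 pools farthest from the median of the marker sum, r was 0.793 for Meis2 and 0.705 for Meis3. With ERCC size factors r was 0.702 and 0.659, and without 2 pools 0.461 and 0.485. Meis3 was at 28.83 to 70.23 CPM from the 13th GFP+ HC column on and at 7.38 to 28.66 CPM before it. The pools with 1093, 1437, 2164 and 3281 CPM of these markers were also among those later columns. The permutations took pools as exchangeable, and the part of collection or column order in these values was not tested. For Meis1, r was 0.299 and rho 0.0737 (permutation adjusted p = 0.264 and 0.84). For the 5 other members r was between -0.188 and 0.444, and none passed at an adjusted p of 0.05 by the same permutation test. An alternative added after the data were seen left out the 5 GFP+ pools highest in these markers by CPM before TMM scaling. The log2 fold changes were then 2.01 for Meis1, 3.13 for Meis2 and 2.84 for Meis3, each still called. Pbx3 then had 0.80 and an edgeR adjusted p of 0.0136, with a range of 0.000229 to 0.0136 over 11 alternatives. On the TMM scale a kept pool (769.8 CPM of markers, 66.9 CPM of Pbx3) stood above a left-out pool (758.3 and 31.01 CPM). The choice of pools thus depended on the scaling. The part of these other cells in the difference between the HC populations was not tested.

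**Figure D2:**
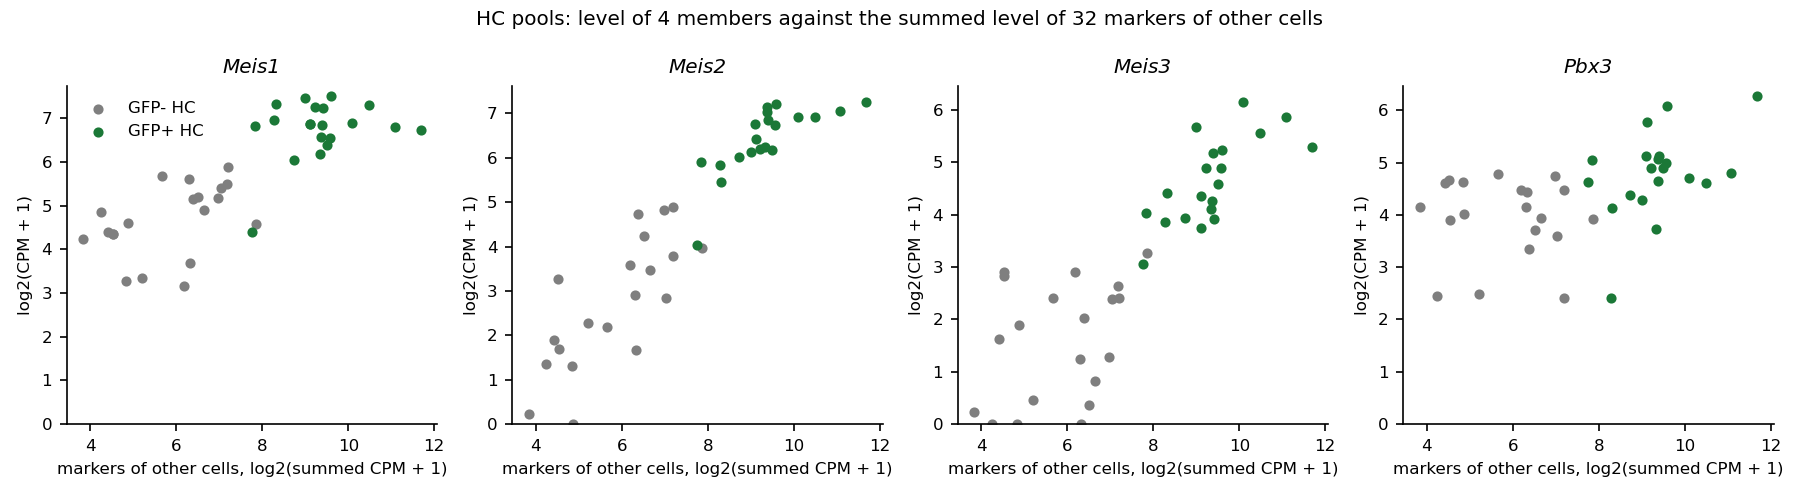
Each point is an HC pool, green for GFP+ and grey for GFP-, with the summed level of 32 markers of other cells on the x axis and the level of Meis1, Meis2, Meis3 or Pbx3 on the y axis, both on the log2(CPM + 1) scale. Among GFP+ pools Meis2 and Meis3 go up with the marker sum (r = 0.758 and 0.712), and Meis1 has r = 0.299.

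In MCs, Pknox2 was the member that rose with Gata3-GFP. With all passing pools it was 2.07-fold higher in GFP+ MCs (log2 fold change 1.05, SE 0.25, edgeR adjusted p = 0.00525) and no other member was called, while 2.21% of 16026 genes were called higher and 2.15% lower. Without the 12 pools Pknox2 was again higher and Meis1 was lower, where 5.52% of 15226 genes were called higher and 4.89% lower.

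Pknox2 had 16.3 to 70.3 CPM with a median of 37.2 in the remaining 17 GFP+ MC pools and 4.41 to 36.1 CPM with a median of 19.6 in the remaining 14 GFP- MC pools. Of the GFP+ pools, 9 lay above every GFP- pool, and the log2 fold change was 1.09 (SE 0.24, edgeR adjusted p = 0.00107). In 1 fit of the 8 populations with all passing pools the same change of 1.06 had an adjusted p of 0.107, the highest of 14 alternatives, 13 of which called it. Meis1 had 168.5 to 337.5 CPM with a median of 239.2 in GFP+ and 249.5 to 365.5 CPM with a median of 310.1 in GFP- MCs. The drop was 1.26-fold (log2 fold change -0.34, SE 0.08, edgeR adjusted p = 0.00176), and 10 of the 17 GFP+ pools lay below every GFP- pool. Per spike-in it was -0.19 (adjusted p = 0.183), and with all passing pools it was -0.29 (adjusted p = 0.553). In 1 fit of the 8 populations without the 12 pools, it was not called either (size of the difference 0.31, adjusted p = 0.364). The range over 14 alternatives was 0.000521 to 0.817. Meis2 had medians of 315.8 and 266.5 CPM (log2 fold change 0.19, SE 0.08, edgeR adjusted p = 0.0968). The other 5 members had log2 fold changes from -0.34 for Pknox1 to 0.21 for Meis3, none of them called. Summed mesenchymal markers were 3742 to 5621 CPM in GFP+ and 2656 to 4176 CPM in GFP- MCs, with 4 of 8 higher and 1 lower, and the part of this difference in the Meis1 and Pknox2 values was not tested.

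In SNS cells no member was called with all passing pools, while 2.01% of 16143 genes were called higher and 1.86% lower by edgeR. At an unadjusted p under 0.05 stood 1 of the 8, Pknox2 (log2 fold change -0.84, SE 0.24, edgeR adjusted p = 0.0192), and DESeq2's Wald test called it (adjusted p = 0.00608). Without the 12 pools Meis1 and Meis2 were lower in GFP+ SNS cells, while 5.48% of 15658 genes were called lower and 4.94% higher.

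Meis2 in the remaining pools had 1.10 to 45.5 CPM with a median of 8.05 in the 15 GFP+ pools and 9.91 to 82.7 CPM with a median of 54.2 in the 16 GFP- pools. Of the GFP+ pools, 8 lay below every GFP- pool and none above the GFP- median, a 3.02-fold drop (log2 fold change -1.60, SE 0.40, edgeR adjusted p = 0.00378). Meis1 had 21.7 to 69.9 CPM with a median of 30.7 against 21.8 to 83.3 CPM with a median of 58.3, a 1.67-fold drop with overlapping pools (log2 fold change -0.74, SE 0.19, edgeR adjusted p = 0.00422). In 1 fit of the 8 populations the size of the Meis1 difference was 0.73 and was not called (adjusted p = 0.0119). Per spike-in the median gene stood at 0.44, Meis2 at -1.32 (adjusted p = 0.00398) and Meis1 at -0.33 (adjusted p = 0.138, with a range of 0.00102 to 0.732 over 14 alternatives). Pknox2 was 14.4 against 27.8 CPM at the median (log2 fold change -0.75, SE 0.25, edgeR adjusted p = 0.0314). Pbx3 was 27 against 32.7 CPM (-0.33, SE 0.12, adjusted p = 0.0596). Meis3, the most abundant member per length in these cells, had medians of 66.4 and 59.2 CPM (0.19, SE 0.13, edgeR adjusted p = 0.35), and per spike-in 0.60 (adjusted p = 0.00274). The GFP+ SNS pools held less of the mesenchymal markers (median sum 260.2 against 539.3 CPM, 7 of 8 lower and 1 higher) and of the urogenital epithelial markers (1.77 against 90.4 CPM, 4 of 5 tested lower). They held more of the sympathetic and neuronal markers (1521 against 528.2 CPM, 9 of 10 higher). Neural crest and glial precursor markers were at 825.7 against 1098 CPM, with 3 of 6 lower. The part of these cells in the Meis1 and Meis2 values was not tested.

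**Figure D3:**
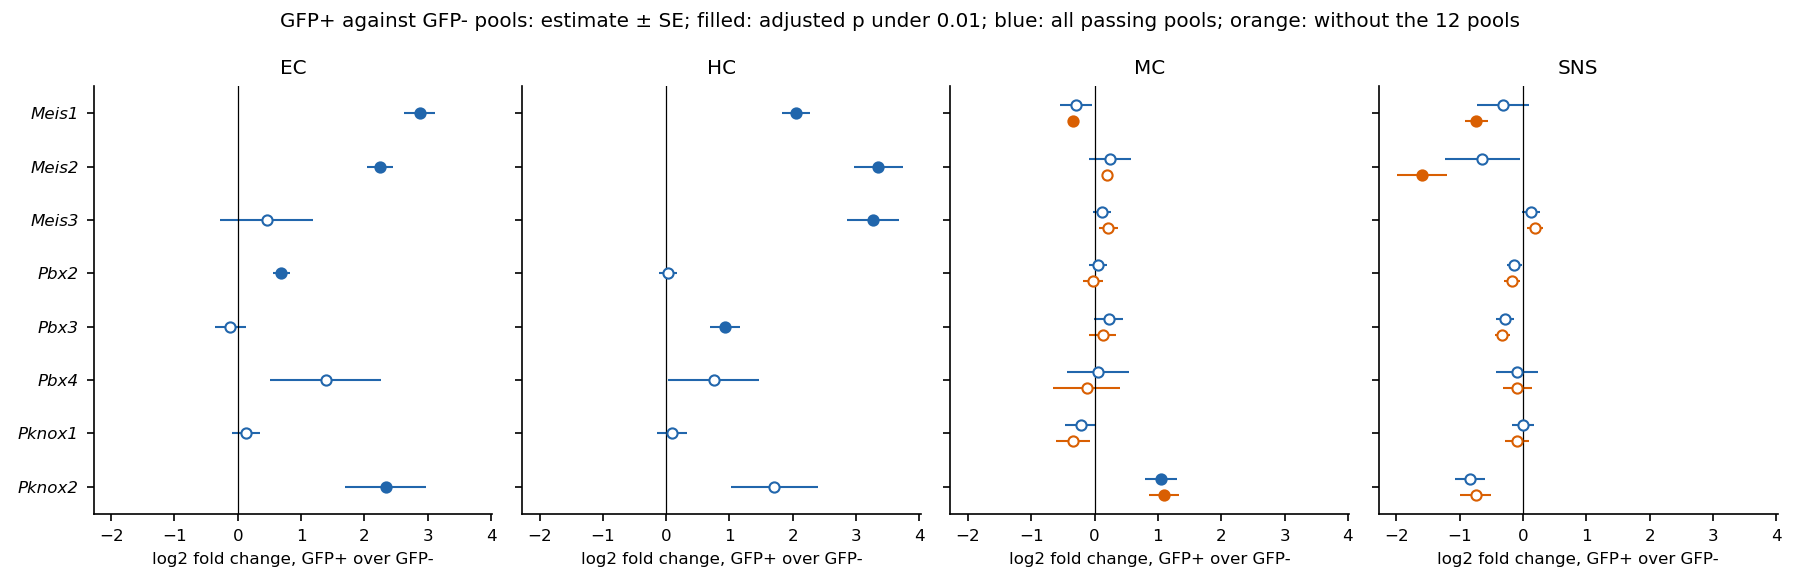
Log2 fold change of GFP+ over GFP- pools (x axis) for each member (rows) in ECs, HCs, MCs and SNS cells, with bars of 1 SE; filled points passed an adjusted p under 0.01, blue uses all passing pools and orange leaves out the 12 pools that went against their label. Meis1 and Meis2 are at 2.05 to 3.35 in ECs and HCs and at 0.19 or lower without the 12 pools in MCs and SNS cells.

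The difference of the GFP contrast between cell types was tested for each member and each of the 6 pairs of cell types in 1 fit of the 8 populations. Of 48 tests, 18 were called with all passing pools, and the same 18 were among the 19 called without the 12 pools. For HCs minus ECs, 2 members were called higher and 1 lower, while 13.9% of all genes were called higher and 8.13% lower (15.1% and 8.81% without the 12 pools). The other 15 calls were all lower. They were 3 of the 8 members for MCs minus ECs, 3 for MCs minus HCs, 4 for SNS minus ECs and 5 for SNS minus HCs. Over all genes 8.17%, 13.5%, 12.2% and 13.4% were lower and 6.42%, 3.85%, 9.91% and 3.59% higher in the same order. Without the 12 pools 6.65%, 12.5%, 11.7% and 13.9% were lower. For SNS minus MCs no member was called with all passing pools, while 4.45% of genes were called in each direction. Between ECs and HCs, the rise of Meis3 was larger in HCs by 2.71 on the log2 scale (SE 0.57, edgeR adjusted p = 5.35e-05) and that of Pbx3 by 0.999 (SE 0.31, adjusted p = 0.00773), while that of Pbx2 differed by -0.70 (SE 0.19, adjusted p = 0.00217). The contrasts of Meis1 and Meis2 did not pass between ECs and HCs, but with ERCC size factors and without the 12 pools Meis2 was called higher. Between MCs or SNS cells and either E10.5 cell type, the contrasts of Meis1 and Meis2 differed in each of the 4 pairs, except that Meis2 was not called for MCs minus ECs with ERCC size factors and all passing pools. Without the 12 pools Meis2 was also called for SNS minus MCs (-1.80, SE 0.43, edgeR adjusted p = 0.00168), where 3.98% of genes were called lower.

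HCs and ECs were compared within each GFP class in the 8-population fit. Among GFP+ pools 2 members were higher in HCs and 1 lower, while 26.3% of 20080 genes were called higher and 17.6% lower. Meis1 was 1.93-fold higher (log2 fold change 0.95, SE 0.29, edgeR adjusted p = 0.00352; with scran size factors 0.82, adjusted p = 0.0124) and Meis3 15.03-fold higher (3.91, SE 0.38, adjusted p = 1.8e-17). Pbx2 was 1.56-fold lower (-0.64, SE 0.14, edgeR adjusted p = 2.06e-05), and per spike-in it stood at -0.03 (adjusted p = 0.867). Meis2 had a log2 fold change of -0.84 (edgeR adjusted p = 0.0613). The 12 pools belong to neither population of this contrast but share its estimate of spread, and without them Meis2 was called (adjusted p = 0.00498), where 18.2% of genes were called lower. Per spike-in Meis2 stood at -0.22 (adjusted p = 0.608, and 0.503 without the 12 pools).

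Among GFP- pools, 1 member was higher in HCs and 1 lower, while 18.4% of genes were called higher and 18.6% lower. Meis1 was 3.48-fold higher (1.80, SE 0.31, edgeR adjusted p = 2.69e-07) and Meis2 3.74-fold lower (-1.90, SE 0.42, adjusted p = 5.98e-05). The mix of both genes was also read as the share of Meis1 in the sum of Meis1 and Meis2 per kilobase of exon. That share had a median of 30.1% in GFP+ ECs (range 11.6 to 43.1) and 57.9% in GFP+ HCs (43.6 to 81.2), without overlap. In GFP- pools it was 17.1% in ECs (5.75 to 63.3) and 83.1% in HCs (45.1 to 100), and these ranges overlapped.

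SNS cells and MCs were compared in the same fit. With all passing pools, Meis1 and Meis2 were lower in GFP+ SNS cells (log2 fold changes -1.60 and -2.20, edgeR adjusted p = 5.92e-06 and 9.40e-06) and Meis1 in GFP- SNS cells (-1.57, adjusted p = 5.33e-05), while 10.6% and 2.67% of genes were called lower. No member was called higher in either class, while 11.1% and 3.62% of genes were. Without the 12 pools these were -2.90, a 7.46-fold drop, for Meis1 and -4.21, an 18.5-fold drop, for Meis2 in GFP+ pools, and -2.48 and -2.41 for both in GFP- pools, where 15.2% and 8.06% of genes were called lower. No SNS pool then reached the lowest MC pool for either gene. Pbx3 was then also lower in GFP+ SNS cells (-0.94, SE 0.23, edgeR adjusted p = 0.000515), and per spike-in it stood at -0.04 (adjusted p = 0.915). Pbx4 had medians of 11.53 CPM in GFP+ and 10.6 CPM in GFP- SNS cells against 2.54 and 3.03 CPM in MCs, with log2 fold changes of 1.40 and 1.38 (SE 0.63 and 0.67, edgeR adjusted p = 0.0682 and 0.126). Of the GFP+ SNS pools, 8 of 15 lay above every GFP+ MC pool. Of the 12 pools, those labelled SNS were all above those labelled MC for both genes, with Meis1 at 231.8 to 290.0 CPM in those labelled SNS and at 30.03 to 95.4 CPM in those labelled MC, and Meis2 at 217.9 to 431.6 and 12.2 to 62.5 CPM.

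**Figure D4:**
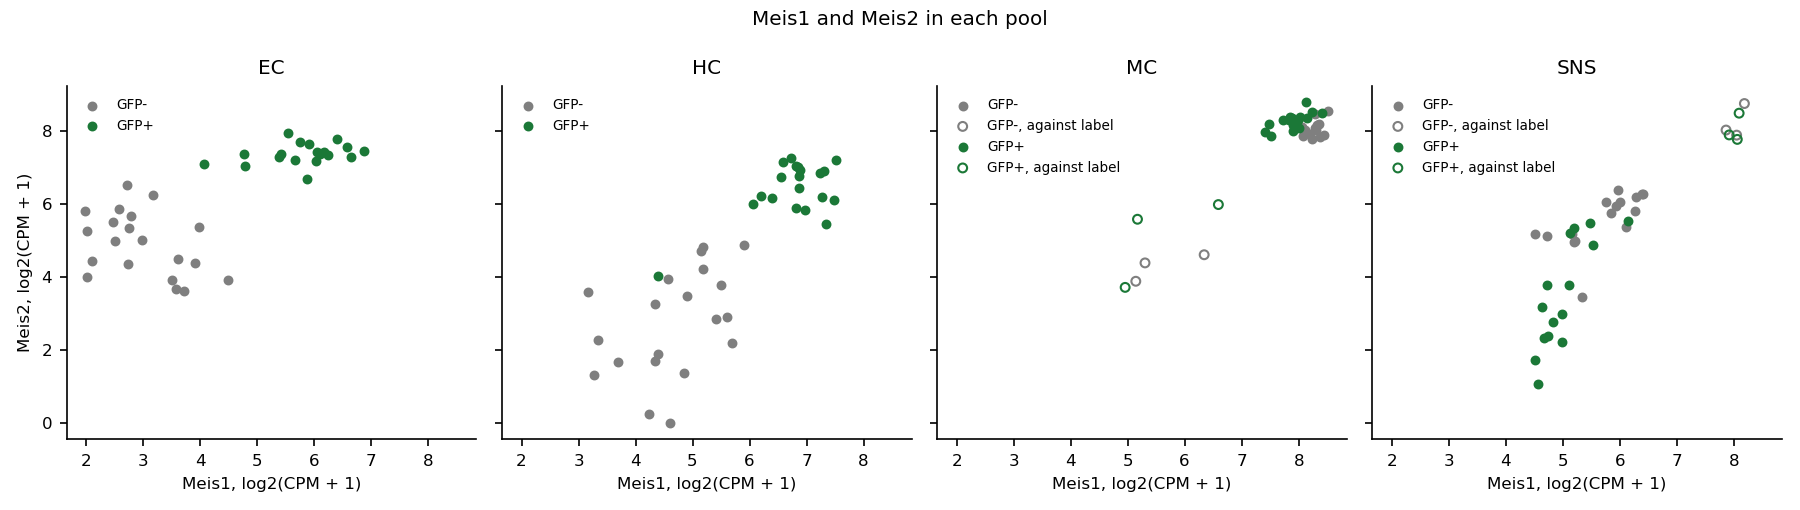
Meis1 (x axis) against Meis2 (y axis) in each pool, both as log2(CPM + 1), by cell type; green points are GFP+, grey are GFP-, and open points are the 12 pools that went against their label. GFP+ and GFP- pools lie apart in ECs and, but for 1 pool, in HCs; the open points labelled SNS lie above those labelled MC on both axes.

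Pools of 1 population were also compared with each other for Meis1 and Meis2, on the log2(CPM + 1) scale without the 12 pools, as pools share depth and collection. The 2 genes went together in GFP+ SNS cells (n = 15, r = 0.808, rho = 0.829, permutation adjusted p = 0.00088 and 0.00224), in GFP- SNS cells (n = 16, r = 0.658, rho = 0.765, permutation adjusted p = 0.0139 and 0.00364) and in GFP+ MCs (n = 17, r = 0.665, rho = 0.615, permutation adjusted p = 0.0139 and 0.0333). Without the 2 pools farthest from the median of Meis1, r was 0.824, 0.734 and 0.581. The GFP+ SNS pools fell into 2 groups, the smaller with Meis2 at 28.5 to 45.5 CPM and Meis1 at 33.97 to 69.9 CPM. The other pools had Meis2 at 1.10 to 12.9 CPM and Meis1 at 21.7 to 33.3 CPM. In column order the smaller group was GFP+ SNS pool 1 and pools 14 to 17. Its summed mesenchymal, sympathetic, neural crest and urogenital markers were at 3528 to 5218 CPM, against 2067 to 3395 CPM in the other pools. The part of collection or cell content in the split was not tested. Leaving out 2 pools does not remove this split, and r within each group was not computed. In GFP+ HCs r was 0.616 and fell to -0.0709 without 2 pools, so it rested on them. In ECs r was 0.297 in GFP+ and -0.404 in GFP- pools, with permutation adjusted p-values of 0.266 and 0.123. With ERCC size factors the GFP+ EC pools had r = 0.669 and rho = 0.323 (permutation adjusted p = 0.00496 and 0.259), and r was 0.385 without 2 pools. It was 0.293 in GFP- MCs and 0.428 in GFP- HCs (permutation adjusted p = 0.353 and 0.121).

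Across the 8 populations, without the 12 pools, the order of mean levels differed between the members. Meis1 was highest in MCs, with 305.1 ± 32.8 CPM (SD, n = 14) in GFP- and 242.3 ± 43.9 CPM (n = 17) in GFP+ MCs, followed by GFP+ HCs (116.4 ± 40.04, n = 20), GFP+ ECs (60.5 ± 25.9, n = 19), GFP- SNS (54.7 ± 20.3, n = 16), GFP+ SNS (32.9 ± 12.5, n = 15), GFP- HCs (28.3 ± 14.9, n = 20) and GFP- ECs (7.94 ± 4.88, n = 20). In the 8-population fit neither the 2 MC populations nor the 3 neighbouring pairs from GFP+ ECs to GFP- HCs were called apart. The other 3 neighbouring pairs were called. Fits of the 2 MC populations alone and of the 2 SNS populations alone, given above, did call Meis1 lower in GFP+ pools. For Meis2 the order was GFP+ MCs (312.4 ± 50.9 CPM), GFP- MCs (271.9 ± 44.7), GFP+ ECs (168.6 ± 33.1), GFP+ HCs (93.8 ± 38.1), GFP- SNS (51.4 ± 21.2), GFP- ECs (34.98 ± 21.99), GFP+ SNS (16.99 ± 16.6) and GFP- HCs (9.34 ± 9.16). Neighbours among the first 3 were not called apart, nor were GFP- SNS cells and GFP- ECs, and the other 4 neighbouring pairs were. Meis3 fell into 3 levels. It was at 62.2 to 100.5 CPM in the 4 E11.5 populations, at 28.3 ± 17.02 CPM in GFP+ HCs, and at 1.40 to 2.91 CPM in the other 3 E10.5 populations, and both steps passed the test (edgeR adjusted p = 0.00197 and 3.86e-14).

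In CPM, Pbx2 was highest in GFP+ ECs (46.5 ± 11.99 CPM), above the next population, GFP- SNS at 33.4 ± 5.96 CPM (edgeR adjusted p = 0.0039). Per spike-in it was not called between GFP+ and GFP- ECs (log2 fold change 0.05) or between GFP+ HCs and GFP+ ECs (-0.03). The other 7 populations lay between 28.2 and 33.4 CPM with no neighbours called apart. Pbx3 ran from 16.2 ± 7.08 CPM in GFP- HCs to 51.6 ± 18.5 CPM in GFP+ MCs, and Pknox1 from 16.6 ± 9.63 CPM in GFP- HCs to 27.6 ± 13.9 CPM in GFP- MCs. None of the 7 neighbouring pairs was called for either. Pbx4 ran from 0.46 ± 1.42 CPM in GFP- ECs to 10.49 ± 4.65 CPM in GFP- SNS, again with no neighbours called apart. Farther apart in these orders populations did differ, and without the 12 pools the fit called 12 of the 28 pairs of populations for Pbx3, 11 for Pbx4, 7 for Pbx2 and 1 for Pknox1. Pknox2 was at 18.02 to 38.9 CPM in the 4 E11.5 populations and at 0.999 to 6.58 CPM in the 4 E10.5 populations, and the step between GFP+ SNS and GFP+ ECs passed (edgeR adjusted p = 0.004).

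Levels of different genes were compared per kilobase of exon. Summed over the 8 genes, the mean level was 40.9 CPM per kb in GFP+ ECs and 18.6 in GFP- ECs. It was 44.7 in GFP+ and 18.04 in GFP- HCs, 106.03 in GFP+ and 102.46 in GFP- MCs, and 49.04 in GFP+ and 54.9 in GFP- SNS cells. The Meis genes held 49.8% of this sum in GFP+ ECs and 22% in GFP- ECs, and 62.1% and 24.2% in GFP+ and GFP- HCs. The mix within the Meis family differed too. Meis2 was the largest part in GFP+ ECs, with 34.2% of the sum of all 8, close to 31.3% for Pbx2. Meis1 held 14.1% there and Meis3 1.53%. In GFP+ HCs the 3 Meis genes were closer, with 24.7% for Meis1, 19.98% for Meis3 and 17.4% for Meis2. In MCs each of the 3 held 21.7% to 29.9%, and in SNS cells Meis3 held 45.8% in GFP+ and 35.7% in GFP- pools. Pbx2 was the largest part in both GFP- E10.5 populations, with 41.7% in ECs and 44.5% in HCs.

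**Figure D5:**
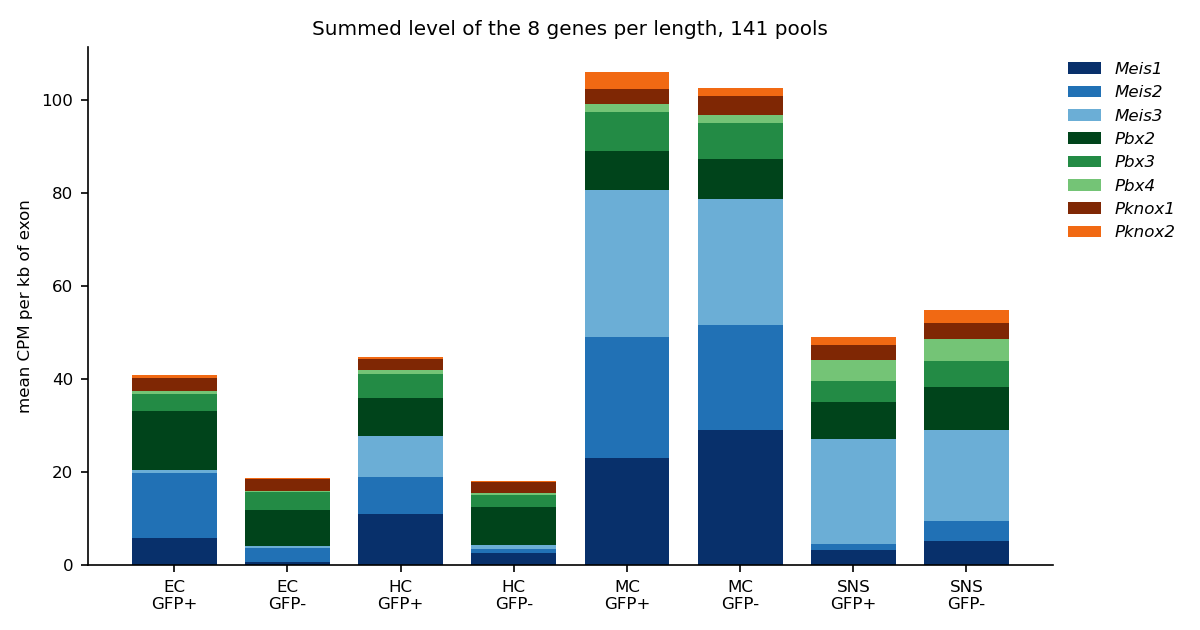
Mean level per kilobase of exon of the 8 genes, stacked, on the y axis for each population on the x axis, without the 12 pools that went against their label. Blue shades are the Meis genes, green the Pbx genes and orange to brown the Pknox genes. The blue part is larger in GFP+ than in GFP- pools of ECs (49.8% against 22%) and HCs (62.1% against 24.2%) and close in MCs (76.03% and 76.8%).

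The Hox genes, the partners of these cofactors, were counted in 2 lists by paralog group. In GFP+ ECs, 4 of 6 tested genes of groups 9 to 13 were higher and 0 lower (19.5% and 16.5% of all genes; median log2 fold change 1.72, all genes 0.10), among them Hoxa9 (medians 87.7 and 23.7 CPM, log2 fold change 1.71, SE 0.16, edgeR adjusted p = 5.33e-12) and Hoxa10 (30.6 and 4.91 CPM, 2.36, SE 0.37). Of groups 1 to 8, 1 of 16 tested was higher, Hoxa7 (28.7 and 13.3 CPM, 1.02, SE 0.25, edgeR adjusted p = 0.000687). In GFP+ HCs, 7 of 7 tested genes of groups 9 to 13 and 15 of 17 of groups 1 to 8 were higher (17.1% of all genes; median log2 fold changes 3.45 and 2.99), beside the same differences in markers of other cells that stood with the Meis genes. Hoxb9 had medians of 17.4 and 0.154 CPM there (5.45, SE 0.64, edgeR adjusted p = 1.29e-08) and Hoxc8 14.6 CPM against 0. In MCs without the 12 pools, where 5.52% of all genes were higher and 4.89% lower, 1 of 20 of groups 1 to 8 was higher, Hoxb8, and 1 lower, Hoxa7 (35.3 and 54.6 CPM, -0.94, SE 0.20, edgeR adjusted p = 0.000773), with 0 of 10 of groups 9 to 13 called by edgeR (3 at an unadjusted p under 0.05). In SNS cells without them, 7 of 10 of groups 9 to 13 were lower in GFP+ pools and 1 higher (5.48% and 4.94% of all genes; 1 and 1 of 11 with all passing pools), and Hoxd10 had medians of 0.851 and 10.8 CPM (-3.15, SE 0.45, edgeR adjusted p = 3.19e-06).

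Of 10 other genes of the TALE class and its partners, 3 were tested in ECs. Pbxip1, which binds Pbx proteins, was higher in GFP+ ECs (46.2 and 14.3 CPM, log2 fold change 1.48, SE 0.22, edgeR adjusted p = 4.43e-07), as was Tgif1, a repressor of TGF-beta signalling (87.9 and 42.1 CPM, 0.95, SE 0.14, adjusted p = 5.05e-07), and Irx3 was lower (0.287 and 6.27 CPM, -3.35, SE 0.50, adjusted p = 4.68e-07). In HCs 3 of 6 tested were higher, Irx2, Irx3 and Irx5, which all had a median of 0 in GFP- pools. In MCs Pbxip1 was higher with and without the 12 pools (0.84 and 1.03), and without them Irx2 was higher as well (10.3 and 0.812 CPM, 2.28, SE 0.60, edgeR adjusted p = 0.0066). In SNS cells edgeR called 0 of 5 tested with all passing pools (0 at an unadjusted p under 0.05), and 0 of 4 without the 12 pools (1 at an unadjusted p under 0.05). Of 10 genes reported as Meis1 targets in blood cells, 4 of 9 tested were higher and 1 lower in GFP+ ECs, and 5 of 10 higher and 2 lower in GFP+ HCs, beside 19.5% of all genes higher and 16.5% lower in ECs and 17.1% and 9.53% in HCs. In MCs 1 of 8 tested was higher (2.21% of all genes), and without the 12 pools 2 of 7 were higher and 1 lower (5.52% and 4.89%). In SNS cells none of 7 was called with all passing pools by edgeR (5 at an unadjusted p under 0.05), and without the 12 pools 1 of 6 was higher and 2 lower (4.94% and 5.48% of all genes). Pf4, a platelet chemokine, had medians of 6044 and 516.5 CPM in HCs (3.82, SE 0.42, edgeR adjusted p = 3.33e-09), Trib2 19.6 and 0.852 CPM (3.21, SE 0.48, adjusted p = 1.21e-06), and Myb, a regulator of progenitors, fell from 25.3 to 6.42 CPM (-1.88, SE 0.38, adjusted p = 0.000108). In ECs Epas1 had medians of 450.9 and 90.3 CPM (2.23, SE 0.12, edgeR adjusted p = 7.12e-19) and Cd34 1462 and 651.9 CPM (1.23, SE 0.09, adjusted p = 4.15e-15).

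The genes whose pattern was most like each member were read from Pearson's r of log2(CPM + 1) across all passing pools, which mostly follows the cell types, among genes with a mean of at least 5 CPM. For Meis1 they were Runx1t1 (r = 0.868), Prrx1 (0.864), a mesenchymal marker, and Cxcl12 (0.855), a chemokine of stromal cells. For Meis2, Ccdc80 (0.865) and Gata6 (0.844) were among the first 3. Meis3 was followed by Scube1 (0.909), Postn (0.901) and Efs (0.9), Pknox2 by Spon1 (0.857), Heyl (0.846) and Pip4p2 (0.823), and Pbx4 by Flrt1 and Ptprz1 (both 0.736) and Robo2 (0.723). Values were lower for Pbx3, with Rnd3 (0.637), Mxra8 (0.618) and Hoxc6 (0.597), for Pbx2, with Son (0.553), Atxn7l3 (0.516) and Msl1 (0.507), and for Pknox1, with Wdr78 (0.379), Gm5446 (0.369) and Ublcp1 (0.368). These are descriptions over pools that share population and depth.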

How the data were processed

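RNA from pools of 20 sorted cells was amplified with Smart-seq2 with ERCC spike-in RNAs. There are no molecular identifiers, and intervals come from the spread between pools. The authors deposited raw read counts per gene, neither normalized nor filtered, for 46078 genes and 92 ERCC RNAs. The methods name STAR, Ensembl release 81 and HTSeq, while the submitters' processing notes name GSNAP, HTSeq 0.5.3p3 and mm10; strand and overlap settings are not given in the sources used here. Library totals left out the 5 summary rows that name no gene, which were used for the limits on pools and hold 4.62% to 19.8% of reads as ambiguous. Positions and exon lengths came from GENCODE M21 (GRCm38), which held 45143 of the identifiers, and promoters from RefSeq (GRCm38.p6).

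Columns were assigned to populations by their headers, which carry no pool numbers. Kept were 153 of 160 pools, those above 500000 reads (genes plus ERCC) with above 20% of reads on genes and below 20% mitochondrial and ERCC reads each; all had over 8000 genes with at least 10 counts. Depths are given in the report. No 2 pools were identical. A gene entered a fit if 5 or more of its pools held 10 counts or more. Fits used edgeR 4.0.16 (R 4.3.3; TMM, robust quasi-likelihood, Benjamini-Hochberg over all genes tested; called at an adjusted p under 0.01). GFP contrasts were fitted on the 2 populations compared, all other contrasts on the 8 populations. Permutation tests were two-sided with 100000 resamples, on log2(CPM + 1) with a pseudocount of 1, and Benjamini-Hochberg adjusted over 16 relations, computed without the 12 pools that went against their label.

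Alternatives were DESeq2 1.42.0, scran 1.30.0 and ERCC size factors, all pools, the limit of 8000 genes, other filters, DESeq2's Wald test, the test of the study (scanpy 1.11.5) and the other fit. The steps were tested on simulated data. The members and gene lists were chosen with earlier results of these data known. The named genes are the members, up to 4 of the largest changes called in each list, of which not all are given, and the 3 genes most like each member, of which 1 gene for Meis2 is not reported here. Irx, Tgif and Hox lists, blood targets and marker lists are as named in the report. Erythroid markers had summed medians of 28.2 and 23.3 CPM in GFP+ and GFP- HCs and of 12.4 CPM or less elsewhere. Their sums reached 174.5 CPM in GFP+ and 1566 CPM in GFP- HCs. In GFP+ HCs 0 of these 7 genes were called higher and 1 lower (17.1% and 9.53% of all genes), with a median log2 fold change of -1.72. Protein sequences were not used here.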

Additional observations from a re-analysis of the deposited data

Results flagged for a closer look

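The results below concern the change between GFP+ and GFP- pools where it differed between 2 cell types, by a test of that difference in 1 edgeR fit of the 8 populations with all passing pools. Values are differences of log2 fold changes, the first cell type minus the second, and each was also called without the 12 pools that went against their label.

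For Meis1 the contrast was -3.18 for MCs minus ECs (SE 0.43, edgeR adjusted p = 1.07e-09), -2.32 for MCs minus HCs, -3.20 for SNS minus ECs and -2.35 for SNS minus HCs. For Meis2 it was -2.02 for MCs minus ECs (SE 0.57, adjusted p = 0.00424), -3.08 for MCs minus HCs, -2.92 for SNS minus ECs and -3.98 for SNS minus HCs. Meis3 gave 2.71 for HCs minus ECs, and -3.08 for MCs minus HCs as well as for SNS minus HCs (edgeR adjusted p = 2.26e-08 and 2.86e-08). Pbx2 gave -0.70 (-0.695) for HCs minus ECs, -0.66 (-0.655) for MCs minus ECs and -0.86 (-0.862) for SNS minus ECs. Pbx3 gave 0.999 for HCs minus ECs and -1.21 for SNS minus HCs. Pknox2 gave -3.19 for SNS minus ECs and -2.57 for SNS minus HCs (edgeR adjusted p = 2.70e-05 and 0.000947).

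MCs and SNS cells were taken a day later than ECs and HCs, so stage and cell type cannot be told apart in these differences. In HCs the markers of other cells differed with GFP, and their sum went with Meis2 and Meis3 across GFP+ pools. Column order and collection were not tested there. With ERCC size factors the median gene differed by 0.77 between the HC and EC contrasts. Pbx2 was then not called in any pair, nor was Meis2 for MCs minus ECs, nor Pbx3 and Pknox2 for SNS minus HCs, while Pbx3 was called higher for MCs minus ECs. With ERCC size factors and without the 12 pools, Pknox2 was not called for SNS minus ECs either.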

How the results depend on the processing

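The number of members called changed by over 1.5 times in 28 comparisons with an alternative, and in 177 it stayed within that. With ERCC size factors, 2 members were higher and 1 lower in GFP+ ECs, 0 were lower in GFP+ HCs against ECs (0 also without the 12 pools), and 1 was higher in GFP+ SNS against MCs (3 without the 12 pools, and 1 in GFP- pools). In the 8-population fit 0 were higher in GFP+ MCs. Without the 12 pools, chosen after seeing the data, 1 was lower in GFP+ MCs and 2 in GFP+ SNS, both also with DESeq2 size factors and DESeq2's Wald test; with ERCC size factors, 1 was higher and 1 lower in SNS. Also without them, 2 were lower in GFP+ HCs against ECs and 2 in GFP- SNS against MCs, there also with ERCC size factors. DESeq2's Wald test on all passing pools gave 1 lower in SNS and 2 higher in GFP- HCs against ECs, and scran size factors 1 higher in GFP+ HCs against ECs. With the 2 populations alone and with the test of the study, 2 were lower in GFP+ HCs against ECs, 4 lower in GFP+ and 1 higher in GFP- SNS against MCs. In GFP+ SNS against MCs, ERCC size factors turned Pbx2 from -0.06 to 0.58 (0.78 without the 12 pools) and Pknox1 from -0.01 to 0.94 without them; the median gene stood at 0.65 and 0.82 there. Of single log2 fold changes, 730 kept their call and direction, 36 gained and 8 lost the call. No paired analysis was possible because the columns carry no pool numbers, so the numbers in the sample titles could not be tied to columns. Depth limited Meis3 in ECs and Pbx4 and Pknox2 at E10.5, where many pools had under 10 counts.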
